A study of Mus musculus with 18 samples.

Results

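The genes described here are 9 markers of the primitive streak and of the mesendoderm it produces, *T*, *Mixl1*, *Eomes*, *Gsc*, *Mesp1*, *Evx1*, *Foxa2*, *Lhx1* and *Cer1*. They were chosen by name, and each was found among the 24369 gene symbols of the deposited TPM table, in which a value is scaled for transcript length and for the library total. RNA-seq was analysed for 18 libraries of mouse embryonic stem cells (mESCs) of the E14 line. All of them carried a destabilised GFP reporter at 1 allele of *Rex1*, the marker of naive pluripotency whose official symbol is *Zfp42*, together with *Cas9* at *Rosa26* under an EF1α promoter. A time course of wild-type cells held 12 libraries, with 3 each at days 0, 1, 2 and 3 of differentiation. The other 6 libraries were from sorted GFP+ mESCs, with 2 each for wild-type, *Nprl2* KO and *Tsc2* KO. *Nprl2* encodes a subunit of Gator1 and *Tsc2* a subunit of the Tsc1/2 complex, and both complexes restrain mTORC1. The KO lines were clones in which paired gRNAs had removed a critical exon from both alleles, and mESCs were maintained in serum and LIF on feeder cells. The sources used here do not give the medium of the day 0 cells. They also do not say whether libraries of a group came from separate clones or cultures, so a p value measures only the spread between libraries, which may be technical.

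The primitive streak is the site at which epiblast cells of the gastrulating embryo leave the epithelium and become mesoderm or definitive endoderm. It is induced by Nodal, Wnt3 and Bmp4 and is confined to the posterior side by inhibitors secreted from the anterior visceral endoderm. The T-box factors T (Brachyury) and Eomes, and the homeodomain factor Mixl1, act in the streak itself. Evx1 marks its posterior part, Mesp1 the earliest cardiac and cranial mesoderm, and Gsc, Foxa2, Lhx1 and Cer1 its anterior derivatives or the anterior visceral endoderm. Naive mESCs that lose self-renewal signals pass through a formative, epiblast-like state before they become able to form a streak.

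The 8 members with an entry in the RefSeq promoter table (GRCm38.p6, 250 bases before to 50 bases after the annotated start) were searched on both strands for short motifs of the factors above. The promoters of 4 members are shown, that of *T* for its Tcf/Lef motif, those of *Gsc* and *Evx1* because both genes were highest at day 0, and that of *Mesp1* because it held the most motif matches and had the lowest counts. Capitals mark every match to the letters searched.
*T*, chr17:8434173-8434472, plus strand: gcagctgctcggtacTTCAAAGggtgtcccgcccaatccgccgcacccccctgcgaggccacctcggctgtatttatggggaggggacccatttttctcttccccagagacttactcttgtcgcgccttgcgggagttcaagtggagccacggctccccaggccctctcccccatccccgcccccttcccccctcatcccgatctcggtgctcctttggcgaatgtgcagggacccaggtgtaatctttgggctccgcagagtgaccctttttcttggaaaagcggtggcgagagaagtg
*Gsc*, chr12:104473187-104473486, minus strand: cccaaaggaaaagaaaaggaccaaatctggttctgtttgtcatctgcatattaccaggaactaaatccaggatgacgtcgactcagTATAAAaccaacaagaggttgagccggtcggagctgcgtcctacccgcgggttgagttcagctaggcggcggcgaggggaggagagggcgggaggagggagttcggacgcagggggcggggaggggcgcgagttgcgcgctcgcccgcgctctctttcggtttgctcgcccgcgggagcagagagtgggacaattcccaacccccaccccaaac
*Evx1*, chr6:52313248-52313547, plus strand: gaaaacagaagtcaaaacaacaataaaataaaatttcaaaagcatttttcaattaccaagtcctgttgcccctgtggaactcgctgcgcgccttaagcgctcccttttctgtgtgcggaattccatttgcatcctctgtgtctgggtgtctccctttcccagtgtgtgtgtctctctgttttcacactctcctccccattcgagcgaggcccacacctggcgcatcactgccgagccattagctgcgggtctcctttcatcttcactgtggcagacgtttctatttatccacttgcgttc
*Mesp1*, chr7:79793541-79793840, minus strand: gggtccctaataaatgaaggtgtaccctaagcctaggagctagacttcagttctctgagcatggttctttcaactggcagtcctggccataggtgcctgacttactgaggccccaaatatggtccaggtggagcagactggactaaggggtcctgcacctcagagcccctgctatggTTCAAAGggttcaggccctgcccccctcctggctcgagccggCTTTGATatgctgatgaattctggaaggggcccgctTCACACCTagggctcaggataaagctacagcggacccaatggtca
The Tcf/Lef motif, written as CTTTGAA or CTTTGAT, was found in 8.65% of all 32851 promoters of that length. It was present at position -235 from the start of *T*, on the reverse strand, and at positions -73 (reverse strand) and -31 of *Mesp1*. One of the 3 promoters of *Foxa2* also held it, at position 15 on the reverse strand. The T-box motif TCACACCT, found in 1.28% of promoters, was present at position 6 of *Mesp1* only. The letters of the TATA box, TATAAA, were found on either strand in 13.6% of promoters. They were present in *Gsc* at position -164 and, on the reverse strand, in 1 promoter of *Foxa2* at position -208. The Foxh1 motif AATCCACA (0.855% of promoters) and the Gsc-type homeodomain motif TAATCC (7.06%) were found in none of the member promoters. A match of letters is a description of the sequence and does not show that a factor binds there.

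The depth was 12503005 to 15305054 estimated counts per time-course library and 8610357 to 13780861 per GFP+ library, so that the largest count compatible with an observed 0 (3 counts) was 0.199 to 0.245 and 0.217 to 0.359 CPM (counts scaled to the library total), respectively. The reporter gene *Zfp42* was between 726 and 804 TPM at day 0 and between 11.3 and 14.4 TPM at day 3. *Nprl2* was at 8.09 and 8.65 TPM in *Nprl2* KO cells, against 16.1 and 17.0 TPM in wild-type. *Tsc2* was at 18.8 and 20.3 TPM in *Tsc2* KO cells, against 45.0 and 44.9 TPM in wild-type. The low-count filter left 14382 genes in the time course, among them 5 of the 9 members (*T*, *Mixl1*, *Eomes*, *Gsc* and *Foxa2*), and 13725 genes in the GFP+ libraries, among them 4 members (*T*, *Eomes*, *Evx1* and *Foxa2*). In bulk RNA, fewer cells with a transcript and less transcript per cell cannot be told apart.

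All 9 members were low in all 18 libraries. At day 0 the summed level of the members was between 10.1 and 11.2 TPM, it was between 4.32 and 4.96 TPM at day 1 and between 3.73 and 5.42 TPM at day 2, and at day 3 it was between 5.26 and 12.6 TPM. *Eomes* had the highest mean level of the members on every day, and its mean at day 0 exceeded that of 59.6% of all genes. The order at day 0 was *Eomes* (4.87 to 5.59 TPM), *Gsc* (2.19 to 2.80 TPM), *Foxa2* (0.655 to 1.55 TPM), *T* (0.376 to 1.25 TPM), *Evx1* (0.347 to 0.867 TPM) and *Mixl1* (0.130 to 0.343 TPM). The libraries of *Foxa2* and *T* overlapped, as did those of *T* and *Evx1*, and the other neighbours in this order did not. *Cer1*, *Mesp1* and *Lhx1* were at or under 0.156 TPM in the day 0 libraries. At day 3 the order of the means was *Eomes*, *T*, *Foxa2* and *Mixl1*, whose libraries overlapped from each to the next, and *Gsc* and *Evx1* were near 0.

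**Figure D1:**
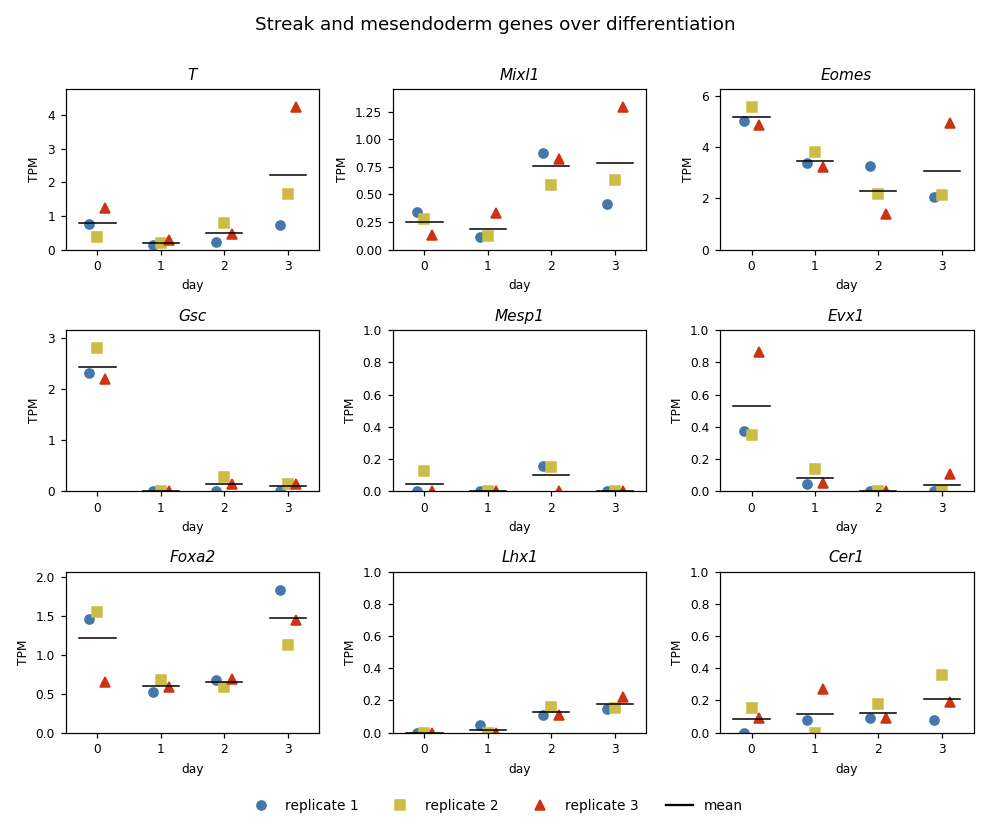
TPM of the 9 members (y axes, each panel with its own scale from 0) against the day of differentiation (x axes), with 1 point per library, shaped and coloured by replicate number, and the mean of each day as a line. *Gsc* and *Evx1* are highest on day 0, *Eomes* is lower on days 1 and 2 than on day 0, and *T* and *Mixl1* reach their highest value, 4.25 and 1.30 TPM, in replicate 3 of day 3.

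Comparisons of days 1, 2 and 3 with day 0 asked how these genes changed as mESCs left naive pluripotency. They share the day 0 libraries, so their results are not independent of each other. Called means an adjusted p under 0.05 in the quasi-likelihood test of edgeR. At day 1, 0 of the 5 members tested were called higher, where 30.1% of all genes were, and 2 were called lower, where 30.8% of all genes were. At day 2, 1 was higher (all genes 34.2%) and 3 were lower (all genes 32.4%). At day 3, 2 were higher (all genes 35.0%) and 2 were lower (all genes 35.9%). From day 1 to day 2, 1 was higher (all genes 32.5%) and 0 were lower (all genes 29.6%), and from day 2 to day 3, 2 were higher (all genes 15.9%) and 0 were lower (all genes 15.6%). At an unadjusted p under 0.05 no member was higher at day 1 either, nor lower in the steps from day 1 to 2 and from day 2 to 3. DESeq2 made the same 0 calls except that it called *Eomes* lower from day 1 to day 2 (adjusted p = 0.0407). With only 5 members tested, these counts cannot be told apart from the shares of all genes. *Gsc* was among the 5 only through its day 0 libraries, and *Mixl1* only through libraries of days 2 and 3. The libraries of day 1, 2 or 3 all lay to one side of those of day 0 in 33.2% to 37.1% of all genes per direction. From day 2 to day 3 the shares were 21.7% above and 21.6% below.

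*T* encodes Brachyury, the T-box factor that the nascent mesoderm requires. It was at 0.777, 0.376 and 1.25 TPM in the 3 day 0 libraries, at 0.133, 0.203 and 0.298 TPM at day 1, at 0.230, 0.807 and 0.464 TPM at day 2, and at 0.740, 1.64 and 4.25 TPM at day 3. The day 1 libraries all lay below those of day 0, while those of day 3 overlapped them. The log2 fold change at day 1 was -1.80 ± 0.84 (SE), with an adjusted p of 0.0773 in edgeR. DESeq2 called it lower (adjusted p = 0.0435), and 4 of 12 alternatives did. *T* was 1.36 ± 0.56 higher on the log2 scale at day 3 than at day 0 (edgeR adjusted p = 0.0396) and 2.04 ± 0.61 higher than at day 2 (edgeR adjusted p = 0.0203). Replicate 3 of day 3 had 55 counts against 11 and 23 in the others, and both calls were lost without it. The log2 fold change over day 0 was then 0.52 (edgeR adjusted p = 0.367) and that over day 2 was 1.19 (adjusted p = 0.115). The call over day 0 was also lost without replicate 1 or replicate 2 of day 0 (adjusted p = 0.0888 and 0.152), and that over day 2 without replicate 1 or replicate 3 of day 2 (adjusted p = 0.0804 and 0.0563). The call at day 3 over day 0 was kept in 5 of 12 alternatives, over which the adjusted p lay between 0.00224 and 0.367.

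*Mixl1*, a paired-like homeobox gene of the streak, was at 0.343, 0.276 and 0.130 TPM at day 0 and at 0.117, 0.120 and 0.329 TPM at day 1. It reached 0.879, 0.583 and 0.818 TPM at day 2 and 0.416, 0.631 and 1.30 TPM at day 3. The libraries of days 2 and 3 all lay above those of day 0. The log2 fold change over day 0 was 1.53 ± 0.52 at day 2 and 1.50 ± 0.52 at day 3 (edgeR adjusted p = 0.0143 and 0.0142), and that from day 1 to day 2 was 1.89 ± 0.55 (adjusted p = 0.00608). The last of these was called in all 12 alternatives. These values rest on 9 to 13 counts per library at day 2 and 7 to 19 at day 3. *Mixl1* passed the low-count filter only through libraries of these days, so being tested depended on its level there. The calls of a rise are therefore no support apart from the counts themselves. Without replicate 3 of day 3 the change from day 0 to day 3 was 0.97 (edgeR adjusted p = 0.125), and without replicate 3 of day 0 it was 1.22 (adjusted p = 0.0578). DESeq2 made neither call over day 0 (adjusted p = 0.0552 at day 2 and 0.0522 at day 3). For day 2 over day 0 the range of the adjusted p over the alternatives was 0.0113 to 0.0567.

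*Eomes*, the T-box factor that acts upstream of *Mesp1* and of definitive endoderm, was at 5.04, 5.59 and 4.87 TPM at day 0, at 3.37, 3.82 and 3.23 TPM at day 1, at 3.27, 2.19 and 1.41 TPM at day 2, and at 2.05, 2.15 and 4.96 TPM at day 3. The libraries of days 1 and 2 all lay below those of day 0 in TPM, and at day 3 replicate 3 lay within the range of day 0. In CPM, which the test uses, the range at day 0 was 9.84 to 11.3 and replicate 3 of day 3 was just below it at 9.19. *Eomes* fell by 1.21 ± 0.32 on the log2 scale at day 2 (edgeR adjusted p = 0.00431), a call kept in all 12 alternatives. At day 3 it was lower by a log2 value of -0.87 ± 0.30 (edgeR adjusted p = 0.0204, between 6.07e-05 and 0.0748 over the alternatives). At day 1 the log2 fold change was -0.51 ± 0.30 with an adjusted p of 0.158 in edgeR, and it was called only when days 0 and 1 were fitted alone (adjusted p = 0.00294). The files list 2 RefSeq transcripts of *Eomes*, and the share of its counts given to either one ranged from about 0 to 100% over the 18 libraries, so only their sum is used.

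*Gsc*, a homeobox gene of the anterior streak and organizer, changed the most. It had 16, 24 and 16 counts at day 0 (2.31, 2.80 and 2.19 TPM), 0 counts in the 3 libraries of day 1, and at most 2 counts in any library of days 2 and 3. No library of days 1 to 3 exceeded 0.273 TPM. At day 1 *Gsc* was at least 5.98-fold lower than at day 0, taking 3 counts per library as the most that a count of 0 allows. The edgeR adjusted p was 2.37e-06 at day 1, 1.24e-05 at day 2 and 4.19e-06 at day 3, and *Gsc* was called lower on each of these days in all 12 alternatives. *Gsc* passed the low-count filter only through its day 0 libraries, so being tested depended on its level at day 0. These p values and calls are therefore no support apart from the counts themselves.

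*Evx1*, a homeobox gene of the posterior streak, showed a like time course at lower counts. It was at 0.376, 0.347 and 0.867 TPM at day 0 (7, 8 and 17 counts), at 0.0459, 0.141 and 0.0515 TPM at day 1, and at 0 in the 3 libraries of day 2. At day 3 it was at 0 in 2 libraries and at 0.107 TPM in replicate 3. The libraries of days 1, 2 and 3 all lay below those of day 0. *Evx1* did not pass the low-count filter, and in the edgeR fit without that filter its adjusted p was 0.00292 at day 1, 2.50e-05 at day 2 and 0.000179 at day 3. DESeq2 gave 0.0377, 0.000261 and 0.00633. At day 2 it was at least 3.48-fold lower than at day 0.

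*Foxa2*, the forkhead factor of anterior streak, node and endoderm, was at 1.46, 1.55 and 0.655 TPM at day 0. It was at 0.524, 0.669 and 0.588 TPM at day 1, at 0.681, 0.579 and 0.687 TPM at day 2, and at 1.83, 1.13 and 1.45 TPM at day 3. Replicate 3 of day 0 lay within the range of day 1 and 2 libraries, whereas all libraries of day 3 lay above those of day 2. The log2 fold change was -0.97 ± 0.37 at day 1 and -0.95 ± 0.37 at day 2 (edgeR adjusted p = 0.0294 and 0.0287), and 1.14 ± 0.36 from day 2 to day 3 (adjusted p = 0.0210). These 3 calls were kept in 7, 7 and 8 of 12 alternatives, and DESeq2 made none of them (adjusted p = 0.105, 0.0952 and 0.0659). Between days 0 and 3 the log2 fold change was 0.19 ± 0.32, with an adjusted p of 0.611 in edgeR. In 16 of the 18 libraries more than 99% of the counts of *Foxa2* went to the same 1 of its 3 transcripts.

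The remaining members stayed at or near the limit set by depth. *Lhx1*, a LIM homeobox gene of the organizer and anterior visceral endoderm, had 0 counts at day 0, 1 count in all at day 1, and then 2, 3 and 2 counts at day 2 and 3, 3 and 4 counts at day 3. The libraries of days 2 and 3 lay above those of day 0, but a count of 0 at day 0 allows as many as 3 counts, so no fold is given. In the fit without the low-count filter *Lhx1* was called higher by edgeR at day 2 and at day 3 (adjusted p = 0.0151 and 0.00480), and by DESeq2 at day 3 only (0.0542 and 0.0257). *Cer1*, a secreted antagonist of Nodal, Bmp and Wnt, had 0 to 4 counts in every time-course library. *Mesp1*, the bHLH factor of nascent mesoderm whose promoter above held the T-box motif, had at most 1 count in any time-course library. Changes of *Cer1* and *Mesp1* were not detectable at this depth.

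**Figure D2:**
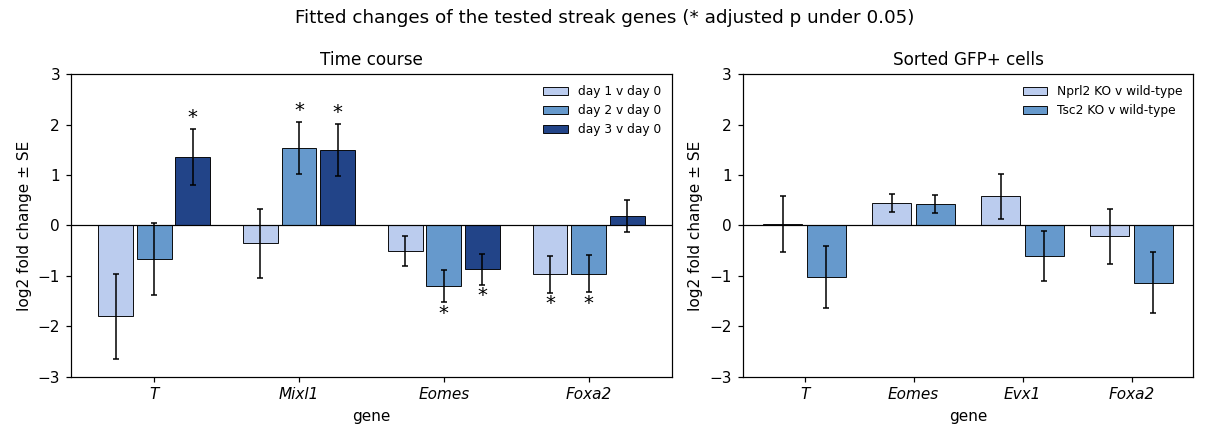
Log2 fold change with its SE (y axis) from edgeR for the members that passed the low-count filter (x axis), for days 1, 2 and 3 over day 0 on the left and for the KO genotypes over wild-type on the right, with an asterisk at an adjusted p under 0.05. *Gsc* is not drawn because its libraries were at or near 0 counts after day 0. *T* and *Mixl1* are higher at day 3, *Eomes* is lower at days 2 and 3, and no bar on the right carries an asterisk.

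The likeness of the members' time courses was described by Pearson's r of log2 CPM over the 12 libraries. Between the 5 members tested it lay between -0.42 (*Mixl1* and *Eomes*) and 0.56 (*Eomes* and *Gsc*). *T* and *Mixl1* had an r of 0.48. Across 11939 genes whose log2 CPM averaged 1 or more, the genes most like *Gsc* included *Rundc3b* and *Kcns3* (r = 0.98 each). *Kcns3*, a potassium channel subunit gene, was at a mean of 7.11 TPM at day 0 and 0.774 TPM at day 1. The genes most like *Mixl1* were *Pllp* (0.96), *Slc11a2* (0.94) and *Cnnm4* (0.93), and those most like *Foxa2* were *Prkcd*, *Loxl3* and *Lnpk* (0.93 each). For *T* and *Eomes* the highest values were 0.90, with *Bola3* and *Sf3b1*. All points share the day of differentiation and the library, and at the counts of the members part of the scatter is counting error.

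Other genes of streak formation were grouped by role. Of 22 tested ligands, receptors and effectors that induce the streak, 13 were higher and 7 lower at day 3 than at day 0 (all genes 35.0% and 35.9%). Their median log2 fold change was 0.56, against -0.01 over all genes. *Wnt3*, the ligand needed for streak formation, was at most 0.0988 TPM in the day 0 libraries and at 1.58, 1.41 and 4.37 TPM at day 3 (log2 fold change 5.12 ± 0.60, edgeR adjusted p = 4.67e-07). *Fgf8*, required for cells to move away from the streak, went from 0.489, 0.921 and 0.155 TPM to 4.11, 7.67 and 14.6 TPM (4.02 ± 0.55, adjusted p = 5.81e-06). The groups of both genes were separate, and replicate 3 was the highest library of day 3 for each.

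Genes of Nodal and Bmp signalling moved in both directions. The largest falls were those of *Tdgf1* (Cripto), the Nodal co-receptor, with a log2 fold change of -3.80 ± 0.30 (edgeR adjusted p = 3.27e-06), and of *Bmp4*, with -3.50 ± 0.22 (adjusted p = 2.02e-10). *Pcsk6*, a convertase of the Nodal precursor, changed by -2.42 ± 0.09 (adjusted p = 1.09e-14). By contrast *Furin*, another convertase of Nodal (1.20 ± 0.12), and *Foxh1*, a partner of Smad proteins (1.19 ± 0.06), were called higher, as were *Smad3*, *Smad4*, *Smad5* and the receptors *Acvr2a*, *Acvr2b* and *Bmpr1a*. *Smad2* (-0.28), the receptor *Acvr1b* (-0.36) and *Gdf3* (-2.15) were called lower (edgeR adjusted p = 0.000305, 0.000297 and 1.74e-10). *Nodal* itself was at 86.1, 78.0 and 76.1 TPM at day 0 and at 21.8, 27.7 and 37.4 TPM at day 3. *Nodal*, *Smad2*, *Acvr1b*, *Gdf3* and the genes called higher are named here after their values were seen. Of 7 inhibitors tested, *Lefty1*, a Nodal antagonist and target, was called higher (2.17 ± 0.47, edgeR adjusted p = 0.00283). It was at 10.9, 25.9 and 9.60 TPM at day 0 and at 55.9, 74.9 and 96.7 TPM at day 3. *Sfrp1* (-1.99 ± 0.09), *Sfrp5* (-1.68 ± 0.33) and *Tcf7l1* (-0.17 ± 0.08) were called lower, the first pair being secreted Wnt antagonists and the last a repressor of Wnt targets. The change of *Tcf7l1* had an edgeR adjusted p of 0.0484 and was lost in 9 of 12 alternatives. At day 3, 35.0% of all genes were called higher and 35.9% lower.

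Among 19 genes of streak mesoderm tested, 4 were higher and 12 lower at day 3 (all genes 35.0% and 35.9%), with a median log2 fold change of -1.27. *Wnt8a*, a Wnt ligand of the posterior streak, was between 0.108 and 0.262 TPM at day 0 and at 3.47, 6.77 and 18.3 TPM at day 3 (5.39 ± 0.83, edgeR adjusted p = 0.000132). *Nkx1-2*, a gene of the caudal epiblast, was 1.93 ± 0.54 higher (edgeR adjusted p = 0.00762, and 0.0502 with days 0 and 3 fitted alone). *Sp5* and *Cdx1*, both targets of Wnt signalling, were at 4.02 to 7.24 and 2.16 to 5.43 TPM at day 0, and no library of days 1 to 3 exceeded 0.301 TPM for either gene. Their log2 fold changes at day 3 were -4.96 ± 0.44 and -4.67 ± 0.51 (edgeR adjusted p = 6.38e-09 and 1.10e-07). *Fgf3* was also lower (-2.07 ± 0.53). Thus *Sp5* and *Cdx1* were highest at day 0, as *Gsc* and *Evx1* were, and *Wnt8a* and *Nkx1-2* were highest in replicate 3 of day 3, as *T*, *Mixl1* and *Wnt3* were.

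Of 9 genes of definitive endoderm tested, 2 were higher and 5 lower at day 3 (all genes 35.0% and 35.9%), with a median log2 fold change of -1.70. The 2 were *Foxj1* (3.27 ± 0.26), a regulator of motile cilia that the node also uses, and *Otx2* (2.40 ± 0.15), which the epiblast and anterior neural tissue express as well (edgeR adjusted p = 1.09e-09 and 1.39e-08). *Fzd5* (-2.51 ± 0.10), *Gata6* (-2.06 ± 0.38) and *Hhex* (-2.01 ± 0.18) were lower.

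**Figure D3:**
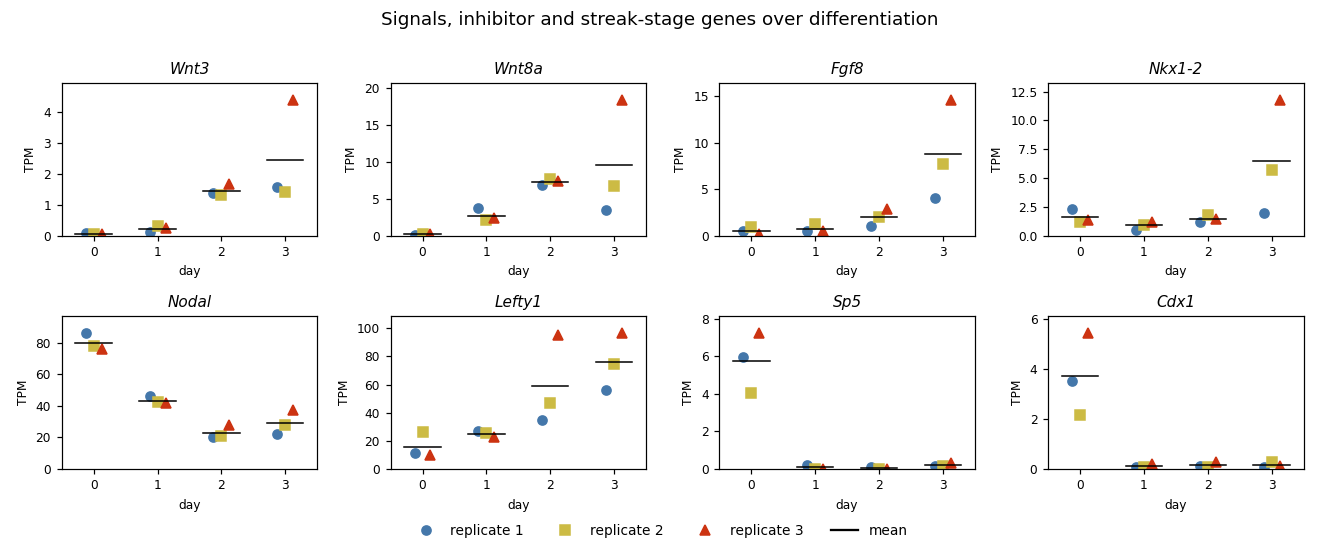
TPM (y axes, each panel with its own scale from 0) of 8 genes of streak induction against the day of differentiation (x axes), with 1 point per library by replicate number and the mean of each day as a line. *Wnt3*, *Wnt8a*, *Fgf8* and *Nkx1-2* are highest in replicate 3 of day 3, at 4.37, 18.3, 14.6 and 11.8 TPM, and *Sp5* and *Cdx1* are near 0 after day 0.

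Replicate 3 was the highest of the day 3 libraries in CPM for 4 of the 5 members tested (*T*, *Mixl1*, *Eomes* and *Gsc*). *Gsc* had 1 count in replicate 2 as well as in replicate 3, so its place rests on the scaling to library totals. Replicate 3 was the highest for 13 of 22 streak-inducing genes, 5 of 7 inhibitors, 6 of 19 genes of streak mesoderm and 1 of 9 of definitive endoderm, against 32.4% of all genes tested. These counts were made after the values of *T* were seen. Markers of other cell types moved over the same days. The 12 markers of feeder fibroblasts summed to 19.1 to 34.9 TPM at day 0 and 266 to 467 TPM at day 3, of which a mean of 249 TPM was *Tagln* and 53.9 TPM *Acta2*, while *Col1a1* was at a mean of 1.17 TPM and *Lum* at 0. The 10 early neural markers summed to 10.3 to 15.2 TPM at day 0 and 101 to 123 TPM at day 3, with a mean of 92.7 TPM for *Nes* and 7.49 TPM for *Sox1*. The 20 markers of primitive and visceral endoderm, the tissue that also expresses *Foxa2*, *Lhx1*, *Cer1* and *Eomes*, summed to 1201 to 1486 TPM at day 0 and to 746 to 847 TPM at day 3. Of the 17 tested, 4 were higher and 11 lower at day 3 (all genes 35.0% and 35.9%). Of their sum at day 0, a mean of 725 TPM was *Apoe*, 216 TPM *Sparc*, 162 TPM *Lamc1* and 141 TPM *Rhox5*. *Gata4*, *Gata6*, *Sox17* and *Sox7* were at means of 3.43, 1.72, 1.05 and 0.663 TPM at day 0. *Ttr*, *Afp* and *Apoa1*, the defining secreted proteins of visceral endoderm, were at a mean of at most 0.237 TPM on any day. The part of such cells in the values of the members was not tested.

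The 3 genotypes of GFP+ cells were compared to ask whether loss of either mTORC1 inhibitor altered these genes in undifferentiated cells. None of the 4 members tested was called in any comparison by edgeR. In *Nprl2* KO over wild-type, 2.78% of all genes were called higher and 3.66% lower. In *Tsc2* KO over wild-type 14.9% were called higher and 14.2% lower, and in *Tsc2* KO over *Nprl2* KO 17.5% were called higher and 16.6% lower. DESeq2 likewise called 0 members in each comparison, and 1 member had an unadjusted p under 0.05 in each. The 2 comparisons with wild-type share its libraries.

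That member was *Eomes* in both comparisons with wild-type. *Eomes* was at 3.05 and 3.17 TPM in wild-type, 3.98 and 4.20 TPM in *Nprl2* KO and 4.13 and 4.38 TPM in *Tsc2* KO, so that both libraries of each KO lay above both of wild-type. Groups of this size did not overlap, with the KO above, in 25.7% and 33.6% of all genes tested. On the log2 scale the difference from wild-type was 0.45 ± 0.18 for *Nprl2* KO and 0.42 ± 0.18 for *Tsc2* KO (edgeR adjusted p = 0.185 and 0.104), and neither was called in any of 10 alternatives. The genotypes with a KO differed from each other in *Eomes* by -0.02 on the log2 scale, with a 95% interval of -0.36 to 0.31.

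Of the 4 members that passed the filter, *Evx1* had the largest difference between the KO genotypes. It was at 0.721 and 1.17 TPM in wild-type, 1.09 and 1.58 TPM in *Nprl2* KO and 0.852 and 0.393 TPM in *Tsc2* KO. Both *Tsc2* KO libraries lay below both *Nprl2* KO libraries, as in 34.0% of all genes tested, and both genotypes overlapped wild-type. The log2 difference of *Tsc2* KO from *Nprl2* KO was -1.19 ± 0.45, with an adjusted p of 0.0595 in edgeR that ranged from 0.0202 to 0.352 over 10 alternatives. Against wild-type *Nprl2* KO differed by 0.58 ± 0.44 and *Tsc2* KO by -0.61 ± 0.50 on the log2 scale (edgeR adjusted p = 0.496 and 0.388).

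*T* was at 0.607 and 2.02 TPM in wild-type, 0.879 and 1.57 TPM in *Nprl2* KO and 0.462 and 0.781 TPM in *Tsc2* KO. Each KO genotype overlapped wild-type, and both *Tsc2* KO libraries lay below both *Nprl2* KO libraries, as in 34.0% of all genes tested. Over wild-type the log2 change of *T* was 0.03 ± 0.55 for *Nprl2* KO and -1.02 ± 0.62 for *Tsc2* KO (edgeR adjusted p = 0.989 and 0.246), and without replicate 2 of wild-type the latter was 0.01. *Foxa2* was at 0.770 and 0.963 TPM in wild-type, 0.434 and 0.986 TPM in *Nprl2* KO and 0.532 and 0.280 TPM in *Tsc2* KO. Both *Tsc2* KO libraries lay below wild-type, with 7 and 4 counts against 9 and 9, and the log2 fold change was -1.13 ± 0.61 (edgeR adjusted p = 0.185). These groups did not overlap, with *Tsc2* KO below, in 32.3% of all genes tested.

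The members that the filter removed had few counts. *Mixl1* was at 0.153 and 0.595 TPM in wild-type, 0.232 and 0.441 TPM in *Nprl2* KO and 0.408 and 0.752 TPM in *Tsc2* KO. The 3 genotypes overlapped. *Mixl1* lies on chromosome 1, whose 747 tested genes were shifted in *Tsc2* KO over wild-type by a median of 0.37 on the log2 scale, against 0.00 over all genes. *Gsc* was at 1.12 and 0.208 TPM in wild-type, 0.167 and 0.398 TPM in *Nprl2* KO and 0.430 and 1.32 TPM in *Tsc2* KO, and was thus detected in all GFP+ libraries, with 1 to 10 counts. *Mesp1*, *Lhx1* and *Cer1* had 0 to 4 counts in every GFP+ library.

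**Figure D4:**
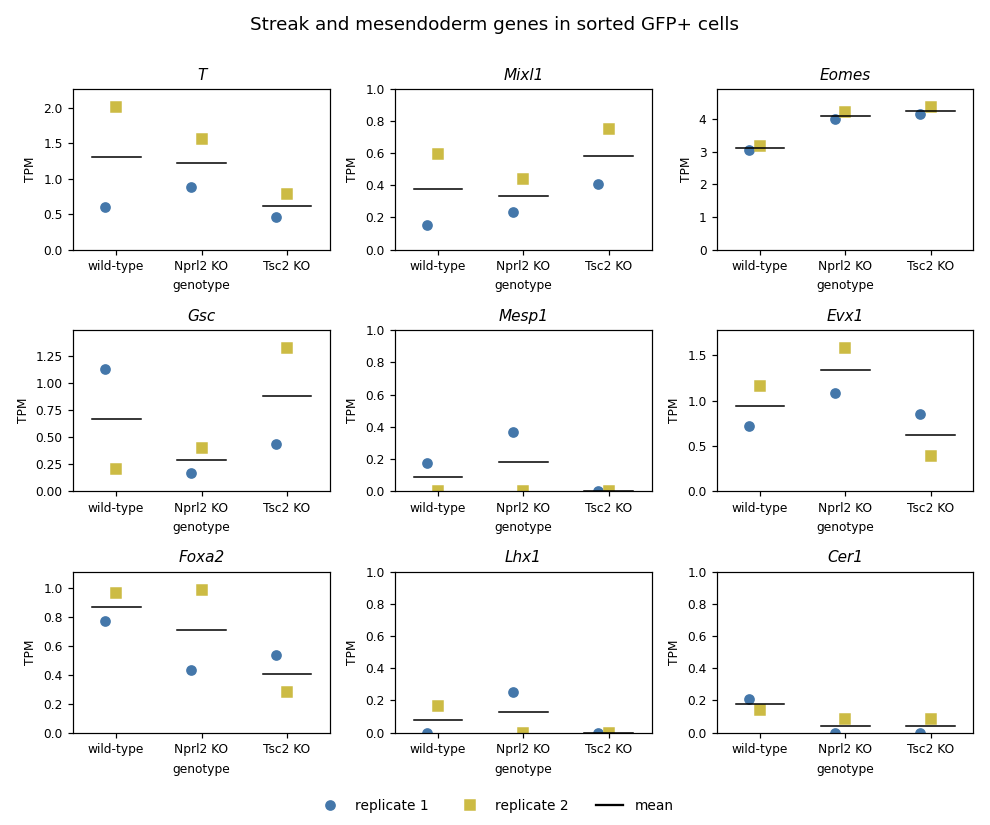
TPM of the 9 members (y axes, each panel with its own scale from 0) in sorted GFP+ cells by genotype (x axes), with 1 point per library by replicate number and the mean as a line. *Eomes* is above wild-type in both KO genotypes, at 3.98 to 4.38 against 3.05 and 3.17 TPM, and the libraries of *T* in wild-type lie at 0.607 and 2.02 TPM.

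Some of the inducing signals and inhibitors were called between genotypes. In *Nprl2* KO, 2.78% of all genes were called higher and 3.66% lower. In *Nprl2* KO, 1 of 21 inducing genes was higher (*Nodal*, 0.63 ± 0.09) and 2 were lower (*Pcsk6*, -0.63 ± 0.10, and *Acvr1b*, an activin receptor, -0.55 ± 0.12), all by edgeR with adjusted p between 0.00168 and 0.0175. Of 8 inhibitors, *Sfrp1* was lower (-1.10 ± 0.13) and *Lefty1* higher (0.43 ± 0.10). Of 16 streak mesoderm genes, *Wnt8a* was higher (1.46 ± 0.23, edgeR adjusted p = 0.00351). The calls of *Lefty1* and *Acvr1b* were lost in 6 and 3 of 10 alternatives, and those of *Pcsk6* and *Wnt8a* without replicate 2 of *Nprl2* KO (edgeR adjusted p = 0.0573 and 0.0561). *Wnt8a* was at 7.83 and 7.03 TPM in wild-type, 15.7 and 24.4 TPM in *Nprl2* KO and 1.29 and 1.38 TPM in *Tsc2* KO. Its libraries thus separated all 3 genotypes. For the 8 definitive endoderm genes tested in *Nprl2* KO the median was 0.33 on the log2 scale, and edgeR called 0 of them, with 2 at an unadjusted p under 0.05 and 1 called by DESeq2.

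In *Tsc2* KO, 4 of 21 inducing genes were higher and 6 lower by edgeR (all genes 14.9% and 14.2%), and DESeq2 called 6 of the 21 in all. *Lef1*, a nuclear effector of Wnt signalling, was at 40.4 and 32.1 TPM in wild-type and at 6.66 and 6.04 TPM in *Tsc2* KO (-2.36 ± 0.12, edgeR adjusted p = 2.23e-07). *Foxh1*, the DNA-binding partner of Smad proteins in Nodal signalling, was lower (-0.997 ± 0.095), and *Bmp4* (1.55 ± 0.13) and *Pcsk6* (0.97 ± 0.10) were higher. *Wnt3* was at 0.386 and 1.07 TPM in wild-type and at 0.0489 and 0.0903 TPM in *Tsc2* KO (-3.23 ± 0.82, edgeR adjusted p = 0.0112), a call lost in 4 of 10 alternatives. *Acvr1b* was higher (0.43 ± 0.11, edgeR adjusted p = 0.0134), and this call was lost in 4 of 10 alternatives, DESeq2 among them. Of 8 inhibitors, *Sfrp1* was higher (1.16 ± 0.11) and *Lefty1* (-2.79 ± 0.12), *Lefty2* (-1.20 ± 0.27) and *Tcf7l1* (-0.33 ± 0.07) were lower. *Lefty1* was at 59.5 and 54.9 TPM in wild-type and at 8.02 and 8.89 TPM in *Tsc2* KO. The call of *Lefty2* was lost without replicate 2 of *Tsc2* KO (edgeR adjusted p = 0.0805).

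Of the 16 streak mesoderm genes tested in *Tsc2* KO, 2 were higher and 2 lower by edgeR (all genes 14.9% and 14.2%), and DESeq2 called 2 in all. *Cdx1* was among the higher (2.46 ± 0.46), and *Wnt8a* (-2.51 ± 0.33) and *Nkx1-2* (-1.64 ± 0.46) were lower, with edgeR adjusted p between 0.000171 and 0.0182. The call of *Nkx1-2* was lost in 3 of 10 alternatives. *Otx2* was the 1 called gene of 8 in the endoderm list (-1.13 ± 0.18, edgeR adjusted p = 0.00328). The feeder markers summed to 227 and 324 TPM in the wild-type libraries, 253 and 261 TPM in *Nprl2* KO and 72.7 and 287 TPM in *Tsc2* KO, with *Col1a1* at means of 61.4, 55.1 and 37.7 TPM. The log2 fold changes of the 10 feeder markers tested lay between -0.39 and 0.03 in *Nprl2* KO and between -0.91 and 0.36 in *Tsc2* KO, and the part of feeder cells in these values was not tested.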

How the data were processed

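RNA was extracted with an RNeasy kit, and the study's methods give stranded, paired-end mRNA-seq on a HiSeq2500 for the GFP+ libraries; how the time-course libraries were made is not given in the sources used here. For each library the authors deposited estimated counts per RefSeq transcript from kallisto 0.42.1 (version and build mm10 per the submitters' processing notes), beside the TPM that kallisto derives from them, with no normalization between libraries. The authors also deposited their own DESeq2 results for the KO genotypes (fold changes and p values), which were not used.

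Transcripts were assigned to genes through RefSeq GRCm38.p6 (33713 of 34079) and GENCODE M21 (192), and 174, which held 1.65 to 3.57% of the counts of a library, were left out. Estimated counts were summed per gene and rounded. All 162 member values of the deposited TPM table equalled the sums per transcript within 0.1%. Counts were fitted with edgeR 4.0.16 in R 4.3.3 (TMM, its low-count filter, robust quasi-likelihood test, Benjamini-Hochberg adjustment over all genes tested, threshold 0.05), with all time-course libraries in one model and all GFP+ libraries in another. Each SE was taken as the size of the log2 change over the square root of F, and intervals are 1.96 SE. TPM is used to compare levels between genes, CPM and counts for tests. Libraries of a group differed by more than sampling noise, and 3 counts per library were taken as the limit of a count of 0, for counting error only. The fit was tested on simulated counts. For day 3 over day 0 (14118 genes) it recovered 96% of genes changed by 1 on the log2 scale and 100% of those changed by 2. For *Tsc2* KO over wild-type (13669 genes) it recovered 92% and 98%. Of 201 genes called in each, 5 and 11 had not been changed. The changed genes were drawn from those above a mean count that only *Eomes* of the members reached, and all genes were given the same spread. These shares therefore say little about the other members.

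The alternatives were DESeq2 1.42.0, upper-quartile normalization, no low-count filter, the replicate number as a block, limma 3.58.1 on log2(TPM + 1), a fit of only the groups compared, and leaving out each library in turn. Values are given for all members, and in each list of streak-inducing signals, inhibitors, streak mesoderm and definitive endoderm for up to 5 called genes with the largest change at day 3 or in each KO; other named genes are said to be chosen after their values were seen, or check the labels. For likeness the 3 genes with the highest r were taken per member. Some results that these rules select are not reported here. The members and gene lists were chosen with earlier results of these data known. Promoter sequences are from RefSeq, and reads shared between related genes were divided by kallisto.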

Additional observations from a re-analysis of the deposited data

Results flagged for a closer look

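The effects of the 2 KOs were compared by the direct edgeR comparison of *Tsc2* KO with *Nprl2* KO. They differed for 17 of the streak-list genes that the report names by its rule for called genes, and for none of the members. Of all genes tested, 17.5% were called higher and 16.6% lower. The 17 genes had been named because they were called at day 3 or in a KO over wild-type. The KO comparisons share libraries with the direct one, so the count is not independent of how the genes were chosen. For that reason it is not set against the shares of all genes. *Gdf3*, named only after its values were seen and not among the 17, also differed (-0.40, edgeR adjusted p = 0.00628). Its call was lost in 1 of 10 alternatives. The log2 effect of *Tsc2* KO was above that of *Nprl2* KO by 2.26 for *Sfrp1*, 1.78 for *Cdx1*, 1.74 for *Bmp4*, 1.60 for *Pcsk6*, 0.98 for *Acvr1b* and 0.69 for *Fzd5*. The difference was -4.27 for *Wnt3*, -3.96 for *Wnt8a*, -3.22 for *Lefty1*, -2.60 for *Lef1*, -2.24 for *Foxj1*, -1.64 for *Lefty2*, -1.57 for *Otx2*, -1.09 for *Foxh1*, -0.73 for *Hhex*, -0.61 for *Nodal* and -0.27 for *Tcf7l1*. The adjusted p in edgeR lay between 5.25e-09 (*Lefty1*) and 0.0185 (*Hhex*). The call was lost in 5 of 10 alternatives for *Hhex*, 4 for *Tcf7l1*, 2 for *Cdx1* and 1 for *Foxj1*. *Sfrp1*, *Pcsk6*, *Acvr1b*, *Lefty1* and *Wnt8a* were called in both KOs with opposite signs, and the call of *Acvr1b* in *Tsc2* KO was lost in 4 of 10 alternatives and that in *Nprl2* KO in 3.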

How the results depend on the processing

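Of the 13 member changes called, none reversed under any alternative, and 5 were called under all of them: *Gsc* at days 1, 2 and 3, *Eomes* at day 2 over day 0, and *Mixl1* from day 1 to day 2. *Gsc* and *Mixl1* had passed the low-count filter only through the days at which they were high. The number of members called at day 1 rose from 2 to 4 when only days 0 and 1 were fitted. From day 1 to day 2 it was 2 with DESeq2 and 2 with the pair of days alone, against 1, and from day 2 to day 3 it was 1 with each of these, against 2. Leaving out single libraries gave 1 to 2 members at day 1, 2 to 3 at day 3, 1 to 3 from day 1 to day 2 and 0 to 2 from day 2 to day 3; the last fell to 0 without replicate 1 of day 2. Over all genes, leave-one-out counts were 2967 to 5043 from day 2 to day 3 (4525 in full, lowest without replicate 2 of day 2), 305 to 532 for *Nprl2* KO (883 in full), 2223 to 3045 for *Tsc2* KO (3996 in full) and 2972 to 3596 for *Tsc2* KO over *Nprl2* KO (4692 in full), with the single library left in a genotype assumed to vary like the others. Without the low-count filter 1667 genes were called in *Nprl2* KO.

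The replicate number was not taken to pair the libraries, since not every pair of same-numbered libraries reached the r of 0.1 required. Deviations of same-numbered libraries correlated between -0.113 and 0.133 in the time course, where 8 of 12 libraries correlated best with their own number, and between 0.0848 and 0.164 in GFP+ cells, where 6 of 6 did. With 2 libraries per genotype the deviations mirror each other, so the 6 of 6 follows once these r are positive. It cannot be set beside the 8 of 12. With the replicate number as a block, 2072 genes were called in *Nprl2* KO. *Evx1* was then called lower in *Tsc2* KO than in *Nprl2* KO (1 member called, edgeR adjusted p = 0.0397), as it was without the filter (1 member, 0.0202) and without replicate 1 of *Tsc2* KO (0.0358), so that single omissions gave 0 to 1 members. *T* was called lower at day 1 with the block (adjusted p = 0.0205).

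Reversals concerned changes that were not called. *T* in *Nprl2* KO was -0.053 with DESeq2, -0.017 with the block and -0.0035 with limma, and lay between -0.68 and 1.06 over single omissions. *Foxa2* from day 1 to day 2 was -0.0095 with DESeq2 and between -0.066 and 0.11 over omissions, and *Eomes* between the KO genotypes was 0.045 with limma and between -0.055 and 0.017 over omissions. Omissions gave ranges of -0.10 to 0.41 for *Foxa2* at day 3 over day 0, -0.56 to 0.28 for *Mixl1*, -0.17 to 0.68 for *Eomes* and -1.12 to 0.23 for *Gsc* from day 2 to day 3, -0.97 to 0.20 for *Foxa2* in *Nprl2* KO and -1.73 to 0.0099 for *T* in *Tsc2* KO. The causes were not tested. Depth limits all members but *Eomes*, since most were measured on fewer than 30 counts per library.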

Other observations

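The GFP+ libraries numbered 2 stood above those numbered 1 for several streak genes in each genotype. *T* and *Eomes*, of the 4 members tested, were higher in replicate 2 in all 3 genotypes, as were 7 of 16 streak mesoderm genes (among them *Cdx1*, *Cdx2*, *Nkx1-2*, *Pdgfra*, *Snai1* and *Sp5*), 7 of 21 inducing genes, among them *Wnt3* and *Nodal*, and 3 of 8 definitive endoderm genes (*Foxj1*, *Gata6* and *Sox17*) and 2 of 8 inhibitors. Among all genes tested the share was 19.4%. Lower in replicate 2 in all 3 genotypes were 0 of the 4 members, 4 streak mesoderm genes, 1 inducing gene, 2 definitive endoderm genes and 3 inhibitors, against 18.2% of all genes. No feeder and no early neural marker tested was higher in replicate 2 in all 3 genotypes. *Sp5* was at 0.422 and 1.42 TPM in wild-type, 0.513 and 2.99 TPM in *Nprl2* KO and 0.225 and 0.829 TPM in *Tsc2* KO. The labels do not say what libraries with the same number share, the genes were counted after their values were seen, and no test was made.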
